A study of Homo sapiens with 12 samples.

Results

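Histone genes were followed in spheroids of human liver cells that were left untreated or were exposed to 1% total parenteral nutrition (TPN), an intravenous feeding mixture of amino acids, electrolytes, glucose, lipid emulsion, trace elements and vitamins. The genes were the rows of the expression table whose symbols name an H1, H2A, H2B, H3 or H4 gene in the numbered series of the histone clusters (H1-, H2AC, H2BC, H3C and H4C followed by a number), which gave 57 of 16705 genes, 56 of them described here. Of the 56, 45 lay on chromosome 6 and 9 on chromosome 1, in the histone gene clusters, whereas H1-10 and H1-8 on chromosome 3 carry a matching symbol but lie outside the clusters and were kept apart. The spheroids were co-cultures of C3A, a clonal hepatocyte-like line (HepG2/C3A) taken from HepG2 hepatoma cells, and LX-2, an immortalized line of activated hepatic stellate cells, and many spheroids were pooled for each library. There were 4 groups of 3 libraries: untreated for 24 h, 1% TPN for 24 h, untreated for 144 h and 1% TPN for 144 h, and the labels name no genetic change and no agent other than TPN. The RNA sequencing is described as coming from independent experiments, but the labels do not tie single libraries to an experiment. The p values rest on the spread between libraries within groups, pooled over the 4 groups and drawn toward that of other genes.

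Histones are the proteins around which DNA is wound: H2A, H2B, H3 and H4 form the nucleosome core, and H1 linker histones bind the DNA between cores. The clustered genes are mostly replication-dependent, that is, they are transcribed in S phase when new DNA needs packaging, have no introns, and give mRNAs that end in a conserved stem-loop, which the stem-loop binding protein SLBP recognizes, in place of a poly(A) tail. Some clustered genes are also known to give longer, polyadenylated mRNAs, particularly in cells that have left the cell cycle. H1-10 is a linker histone whose mRNA is polyadenylated and made outside S phase.

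The stem-loop defines what kind of mRNA these genes make, so its sequences are shown first. The reference transcript (MANE transcript of GENCODE v44) held a stem-loop in 54 of the 54 clustered members and in neither of the 2 outside the clusters, against 70 of 19061 MANE transcripts of all genes (0.367%) with such a sequence in their last 100 bases. The members were not searched in their last 100 bases alone, so the 2 counts come from unlike searches. The H2BC21 transcript, for example, runs 1729 bases past its stem-loop. The 54 members used 8 different sequences. The 4 found in more than 1 member are given here as DNA, 5′ to 3′, with the stem arms in capitals and the loop in lower case.
The form of 32 members, among them H1-2, H2AC6, H2AC18, H2BC15, H2BC21 and H3C3: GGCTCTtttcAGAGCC
The form of 7 members, among them H4C8 and H4C11: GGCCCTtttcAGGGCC
The form of 7 members, among them H2BC4, H2BC5 and H2BC12: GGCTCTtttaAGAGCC
The form of 4 members, among them H4C12, H4C14 and H4C15: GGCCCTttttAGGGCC
H2AC20 and H2AC15 were among the 4 members with a sequence of their own: H2AC20 had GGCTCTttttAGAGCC and H2AC15 had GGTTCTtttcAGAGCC.

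Many H2A and H2B genes share a promoter, with the starts facing away from each other. There were 10 such pairs, with 193 to 250 bases between their starts, and 3 of them, whose expression is described further on, are shown. The sequences were read from GRCh38 on the plus strand, and capitals mark CCAAT (or ATTGG), the core of the CCAAT box, TATAAA (or TTTATA), the core of the TATA box, and ATTTGCAT (or ATGCAAAT), the octamer bound by POU2F1.
Between H2BC4 on the left and H2AC6 on the right, chr6:26123927-26124171: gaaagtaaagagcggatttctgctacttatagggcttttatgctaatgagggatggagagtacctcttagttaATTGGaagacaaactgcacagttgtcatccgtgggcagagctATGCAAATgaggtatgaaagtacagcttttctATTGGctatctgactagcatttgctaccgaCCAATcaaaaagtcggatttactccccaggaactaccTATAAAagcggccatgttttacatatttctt
Between H2BC21 on the left and H2AC20 on the right, chr1:149886683-149886917: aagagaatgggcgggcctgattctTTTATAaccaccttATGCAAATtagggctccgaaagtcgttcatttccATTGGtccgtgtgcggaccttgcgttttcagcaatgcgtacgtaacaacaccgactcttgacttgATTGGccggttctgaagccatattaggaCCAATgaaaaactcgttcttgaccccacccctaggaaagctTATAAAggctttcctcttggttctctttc
Between H2AC15 on the left and H2BC15 on the right, chr6:27838376-27838568: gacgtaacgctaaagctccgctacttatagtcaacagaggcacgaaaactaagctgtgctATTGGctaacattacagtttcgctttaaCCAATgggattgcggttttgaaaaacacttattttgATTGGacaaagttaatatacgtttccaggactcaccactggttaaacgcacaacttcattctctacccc
All 3 intervals held 3 CCAAT boxes. The first held 1 and the second 2 TATA motifs, each held 1 octamer, and the third held neither of these letter strings.

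In RefSeq promoter windows (GRCh38.p14, 250 bases before to 50 bases after the start), which were matched for 52 of the 56 members, the motifs followed the histone class. CCAAT on either strand was in 5 of 5 H1, 13 of 13 H2A, 15 of 15 H2B and 8 of 8 H3 promoters in clusters but in 1 of 9 H4 promoters, against 34.6% of 35116 promoters. The octamer was in 10 of 13 H2A and 12 of 15 H2B promoters and in none of the H1, H3 and H4 promoters, against 1.77% of all promoters. AAACACA, the H1 box, was in 5 of 5 H1 promoters in clusters (5.64% of all), and GGTCCG, a part of the H4 subtype element, was in 9 of 9 H4 promoters (11.3% of all). TATAAA was in 10 of 13 H2A, 11 of 15 H2B, 6 of 8 H3, 4 of 9 H4 and 2 of 5 H1 promoters (11.5% of all). These are matches of letters, and no binding was measured.

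Expression was given as FPKM, a number of sequenced fragments corrected for the length of the transcript and the size of the library. The table holds no read counts, but the steps between low FPKM values in 51 short genes, where 225 of 251 values (89.6%) lay within 0.2 of a whole number of fragments, gave an estimate of 1.84e+07 fragments per library. Histone mRNAs are short: at 500 bases, 1 fragment was worth 0.231 FPKM, 5 FPKM stood for 21.6 fragments and 0.5 FPKM for 2.16. Members with a mean of at least 5 FPKM over the 12 libraries were therefore called well measured, those of 0.5 to 5 FPKM low, and those under 0.5 FPKM were not tested. The well measured members were 9, namely H1-2, H2AC6, H2AC18, H2BC4, H2BC5, H2BC12, H4C11, H4C12 and, outside the clusters, H1-10. A further 23 were low and 24 were not tested, which left 32 members tested, 31 of them in clusters. The limit of 5 FPKM moves with the changes themselves: H2BC4 and H2BC5 averaged 3.49 and 3.63 FPKM over the 9 libraries outside the group exposed to TPN for 144 h and passed through that group, while H2AC20, at 5.43 FPKM over those 9 libraries, fell short of it at 4.43 over all 12. H4C11 and H4C12 passed on reads that their sequences share, and single values of these genes are not reliable. H3 genes had no well measured member, 5 low members and 4 that were not tested.

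Reads can also be shared among near-identical copies. Sharing was counted from the MANE transcript of each member, and other forms of the members were not compared. Each was compared with the transcripts of every other gene, so a shared stretch need not come from a near-identical copy. Of the 54 clustered members, 36 shared no stretch of 100 bases with a transcript of another gene. A further 18 shared at least 1 such stretch, and 11 of these shared over 50% of their 100-base stretches. H2AC18 shared 100% with H2AC19, H3C15 shared 100% with H3C14, and H4C14 and H4C15 shared 100% with each other, so the values of these genes belong to the copies together and are uncertain for each gene. H2AC14 shared 61.8% with H2AC13. H2AC17 shared 63.7% with H3C12, a gene of another histone class. H3C4 shared 96.0% and H2AC7 82.0% with the same unnamed gene. H1-2, H1-4, H2AC6, H2AC15, H2BC4, H2BC5, H3C3, H3C10 and H4C8 shared none, H2BC12 shared 22.5%, H2AC20 shared 12.7%, H2BC21 shared 2.59% and H2BC15 shared 1.13%.

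The effect of sharing was visible in H4C11 (chr6:27824092-27824480) and H4C12 (chr6:27831174-27831560), which shared 90.7% and 91.3% of their stretches with each other and had the highest FPKM of the H4 genes. H4C11 stood at 0, 9.40 and 20.9 FPKM in untreated spheroids at 24 h and at 25.9, 27.7 and 18.6 in spheroids exposed to TPN, and at 17.1, 8.35 and 18.1 (untreated) and 10.1, 6.38 and 4.57 (TPN) at 144 h. H4C12 stood at 30.97, 15.88 and 6.52 FPKM and at 9.08, 0 and 8.46 at 24 h, and at 15.04, 12.74 and 0 and at 0, 8.25 and 15.04 at 144 h, in the same order of libraries. A library listed at 0 for either gene was high for the other, so the genes are read here only as a sum, which was 27.9 ± 2.87 FPKM (SD, n = 3) untreated and 29.9 ± 4.43 with TPN at 24 h, and 23.8 ± 7.38 and 14.8 ± 4.78 at 144 h. At 144 h the sums of the exposed libraries were 10.1, 14.6 and 19.6 FPKM and those of the untreated libraries 32.1, 21.1 and 18.1, so the groups overlapped.

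**Figure D1:**
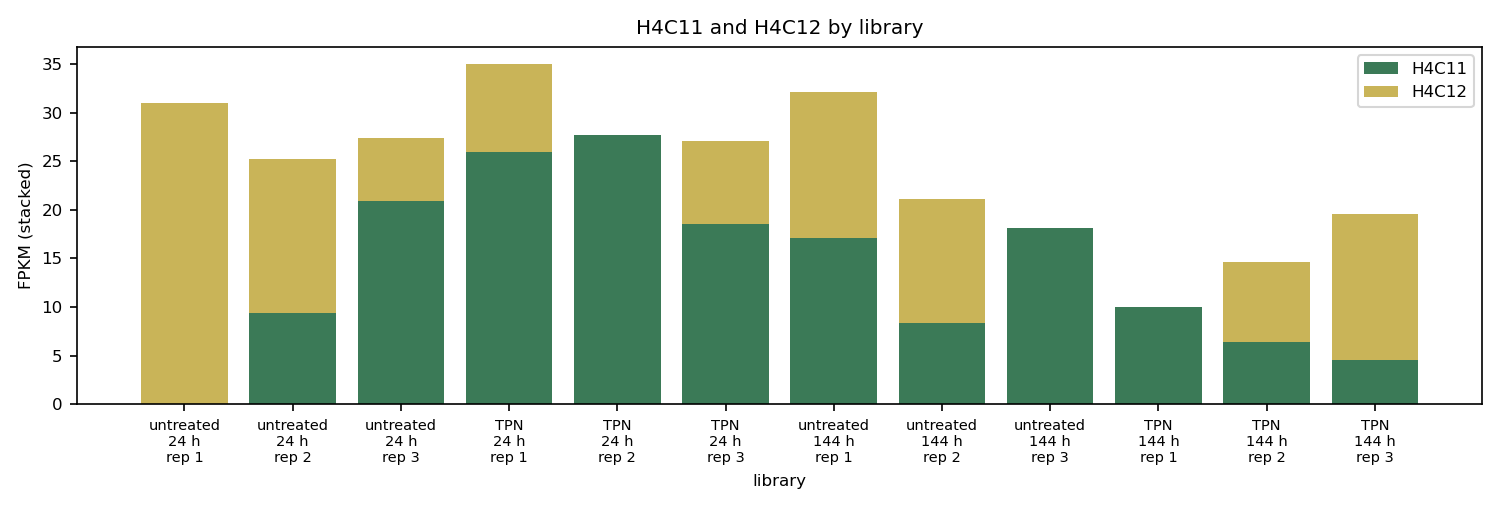
FPKM of H4C11 and H4C12 in each of the 12 libraries, stacked so that the bar height is the sum of both genes. Either gene is listed at 0 in single libraries, such as H4C11 in untreated 24 h replicate 1 at a sum of 31.0 FPKM, while the sum stays between 10.1 and 35.0.

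Expression was compared as log2(FPKM + 0.1) with limma over the 4 groups, and a gene was called where its Benjamini-Hochberg adjusted p over the 11713 genes tested was below 0.05 and its absolute log2 fold change above 0.58. After 144 h, TPN went with higher levels of H1-2 and of some H2A and H2B transcripts, and with lower levels of some other H2A and H3 transcripts. Of the 32 members tested, 9 rose (H1-2, H2AC6, H2AC18, H2BC4, H2BC5, H2BC12, H2BC15, H2BC21 and H4C8) and 5 fell (H1-4, H2AC14, H2AC20, H3C3 and H3C15), whereas 5.75% of all genes tested rose and 3.73% fell. The median log2 fold change was 0.15 over the 31 clustered members tested and -0.02 over all genes tested. H1-10 was not called, and neither were H4C11 and H4C12, which are read only as a sum.

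H1-2 (chr6:26055740-26056470, minus strand), which encodes the linker histone H1.2, had the highest FPKM of the clustered genes over the 12 libraries. It stood at 13.6, 12.9 and 16.9 FPKM in the untreated libraries at 144 h and at 32.5, 37.5 and 37.8 in the libraries exposed to TPN. The groups were far apart, and the log2 fold change was 1.31 ± 0.08 (SE, limma adjusted p = 2.18e-08). At 24 h the same gene stood at 18.6, 18.7 and 18.9 FPKM untreated and at 15, 15.7 and 15.1 with TPN, so that here every exposed library lay below every untreated one. That difference of -0.29 ± 0.08 had an adjusted p of 0.036 and did not reach the fold threshold. H1-4, another linker histone gene, was near the limit of measurement, with 0.61, 0.41 and 0.61 FPKM untreated and 0.31 in each of the 3 libraries with TPN at 144 h, a log2 fold change of -0.63 ± 0.22 (adjusted p = 0.0252) that was lost on leaving out untreated 144 h replicate 1 or 3 or any of the 3 exposed libraries, with an adjusted p of up to 0.0849 over all alternatives.

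Among H2A genes, H2AC6 (chr6:26124172-26124690, plus strand) stood at 17.41, 13.23 and 16.02 FPKM in untreated libraries and at 39.5, 43.6 and 38.6 in exposed libraries at 144 h. These groups did not overlap, and the log2 fold change was 1.39 ± 0.10 (adjusted p = 1.23e-07). H2AC18 (chr1:149842218-149842750, minus strand), counted together with its copy H2AC19, stood at 17.47, 15.94 and 15.98 FPKM untreated and at 32.9, 33.6 and 32.9 with TPN. The exposed libraries lay close together and above all untreated ones, with a log2 fold change of 1.01 ± 0.13 (adjusted p = 1.87e-05). H2AC20 (chr1:149886918-149887411, plus strand) went the other way, from 7.56, 5.81 and 4.61 FPKM untreated to 1.93, 1.66 and 0.71 with TPN, without overlap, and fell by 2.07 ± 0.31 on the log2 scale (adjusted p = 9e-05). H2AC14 fell by 1.47 ± 0.57 (adjusted p = 0.0442) at 0.82, 0.25 and 0.88 FPKM untreated against 0, 0.31 and 0.26 with TPN. Its groups overlapped at values of 1 or a few fragments, and the call was lost on leaving out TPN 24 h replicate 1, 2 or 3, untreated 144 h replicate 1 or 3 or TPN 144 h replicate 1, with an adjusted p of up to 0.209 over all alternatives.

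All of the 5 H2B genes that were called rose. H2BC5 (chr6:26158008-26172802, plus strand) stood at 2.78, 3.99 and 7.52 FPKM in untreated and at 15.7, 17.7 and 15.9 in exposed libraries at 144 h. Its groups did not overlap although the untreated libraries were spread widely, and the log2 fold change was 1.88 ± 0.26 (adjusted p = 4.35e-05). H2BC4 (chr6:26113170-26123926, minus strand) stood at 5.27, 4.25 and 6.61 FPKM untreated and at 13.01, 16.77 and 12.8 with TPN, a log2 fold change of 1.40 ± 0.23 (adjusted p = 0.000183). H2BC12 (chr6:27138293-27146858, minus strand) stood at 5.09, 4.71 and 7.10 FPKM untreated and at 9.09, 12.1 and 11.1 with TPN, a log2 fold change of 0.94 ± 0.19 (adjusted p = 0.000873). For both genes every exposed library lay above every untreated library. H2BC15 stood at 5.43, 4.05 and 6.30 against 8.75, 8.82 and 10.8 FPKM (0.85 ± 0.17, adjusted p = 0.000702). H2BC21 stood at 0.93, 0.94 and 0.92 against 2.45, 2.08 and 2.16 FPKM (1.17 ± 0.12, adjusted p = 2.02e-06). These groups did not overlap either, and although H2BC21 had a low FPKM, its transcript of 2224 bases gives more fragments per FPKM than the other members have.

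The H3 genes called were lower with TPN, and the H4 gene called was higher. H3C3 (chr6:26045384-26045869, plus strand), which had the highest FPKM of the H3 genes, stood at 4.41, 3.61 and 3.34 FPKM untreated and at 0.75, 0.49 and 0.25 with TPN. The groups did not overlap, and it fell by 2.79 ± 0.29 on the log2 scale (adjusted p = 3.01e-06), with an estimated 46.2 fragments over the 3 untreated libraries and 6.1 over the 3 exposed ones. H3C10, the next H3 gene by level, stood at 1.47, 0.96 and 2.63 FPKM untreated and at 3.50, 1.48 and 0.99 with TPN, and these overlapping groups gave 0.15 ± 0.38 (adjusted p = 0.763). H3C15, which cannot be told apart from its copy H3C14, stood at 0.21, 0.63 and 0.84 FPKM untreated and at 0.22, 0 and 0 with TPN (-2.02 ± 0.52, adjusted p = 0.00499), on an estimated 7.8 and 1.0 fragments. Its groups overlapped, since the highest exposed library lay above the lowest untreated one. The 4 H3 genes under 0.5 FPKM were not tested. At 144 h H3C6 averaged 0.29 FPKM untreated and 0.93 with TPN, and H3C13 averaged 0 and 0.27, both without overlap. H3C7 averaged 0.08 and 0.16, and H3C11 was 0 in both groups. H4C8 stood at 0.76, 1.44 and 1.44 FPKM untreated and at 4.94, 5.21 and 6.75 with TPN, without overlap (2.16 ± 0.63, adjusted p = 0.0111).

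**Figure D2:**
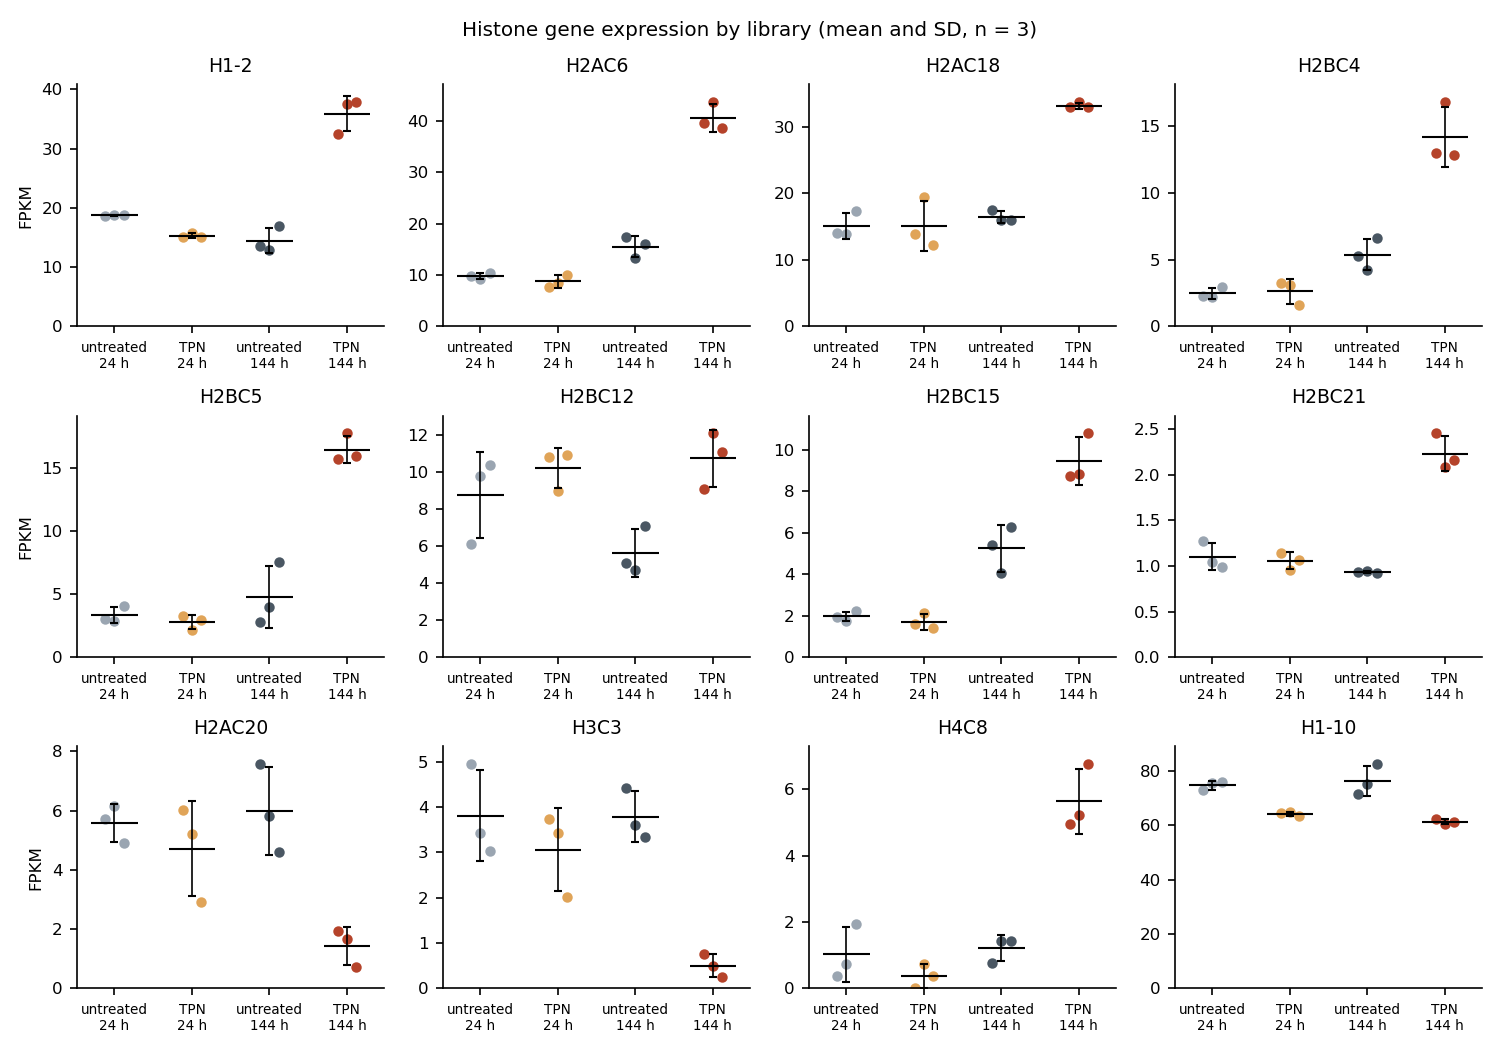
FPKM (vertical axis, starting at 0) of 12 histone genes in each library, by group, with the mean (line) and SD (bar) of 3 libraries. The 8 genes in the first and second rows and H4C8 stand highest in spheroids exposed to TPN for 144 h, apart from H2BC12, whose 24 h values reach 10.96 FPKM, while H2AC20 and H3C3 stand lowest there.

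Summed over all members of a class, transcripts of H1, H2A and H2B genes in clusters were higher in spheroids exposed to TPN for 144 h than in the other 3 groups. H1 summed to 15.1 ± 2.26 FPKM (SD, n = 3) untreated and 36.3 ± 2.88 with TPN, a ratio of 2.41. H2A summed to 45.3 ± 4.49 and 82.9 ± 3.98, a ratio of 1.83, and H2B to 26.2 ± 5.58 and 57.2 ± 5.53, a ratio of 2.19. In these 3 classes the lowest exposed library lay above the highest untreated one. H3 summed to 8.55 ± 0.96 FPKM untreated and 5.60 ± 1.98 with TPN, and H4 to 38.4 ± 4.44 and 33.8 ± 8.08, and in both classes the groups overlapped. All 54 clustered genes together summed to 134 ± 11.9 and 216 ± 12.8 FPKM, a ratio of 1.62. The sums depend on few members, since H1-2 alone made up 14.5 of the 15.1 FPKM of untreated H1 at 144 h. For H2A at that time, H2AC6 and H2AC18 together made up 32.0 of the 45.3 FPKM untreated and 73.8 of the 82.9 with TPN. The H2A sum therefore shows the rise of these genes and not of every H2A gene, and H2AC14 and H2AC20 fell.

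**Figure D3:**
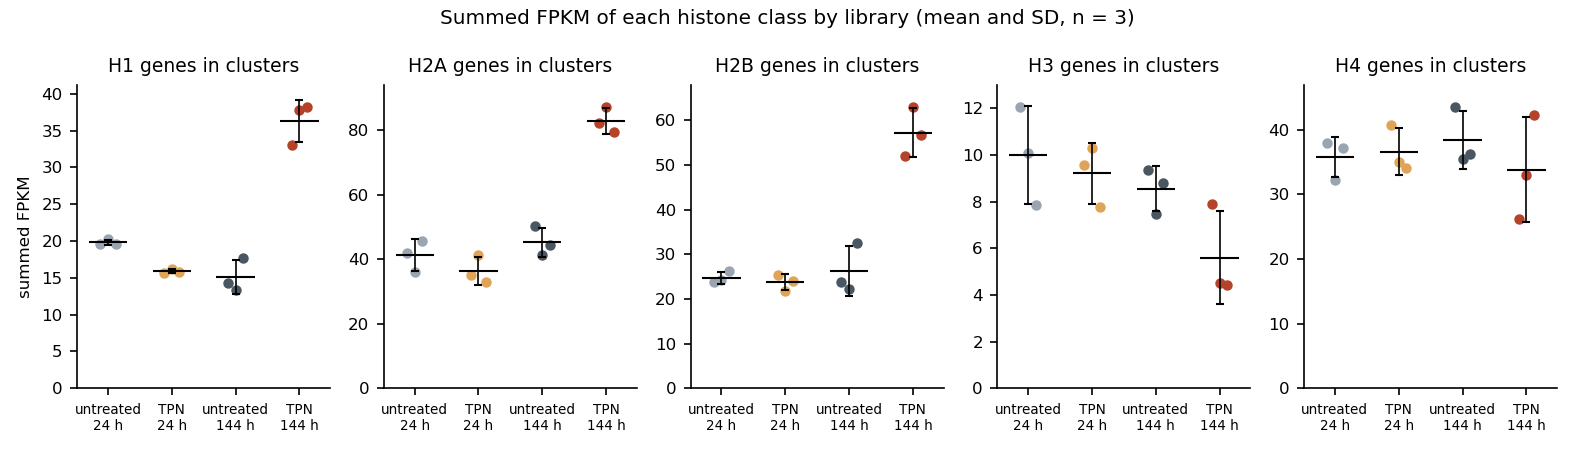
Summed FPKM of each histone class per library (points), with the mean (line) and SD (bar) of 3 libraries in each group. H1, H2A and H2B stand at 36.3, 82.9 and 57.2 FPKM with TPN at 144 h, above all other groups.

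For 6 members (H1-2, H2AC6, H2BC4, H2BC5, H2BC12 and H2BC21) polyadenylated forms are known. The list was drawn up when results of these data were known, so its direction is no independent evidence. All 6 rose with TPN at 144 h, with a median log2 fold change of 1.35, against 5.75% of all genes tested that rose. None was called at 24 h, where 0.64% of all genes tested rose and 0.273% fell. At an unadjusted limma p under 0.05, 1 was lower at 24 h, and the share of all genes at that limit was not counted. The 6 summed to 46.7 ± 7.66 FPKM untreated and 120 ± 8.88 with TPN at 144 h. Longer forms were also counted in the annotation. A longer form, that is, a GENCODE transcript running more than 100 bases past the stem-loop or a span of more than 1000 bases in the table, was annotated for 20 of the 54 clustered members. H1-2, although among the 6 above, was not among these 20. Longer forms were present in 7 of the 9 members that rose with TPN at 144 h and in 0 of the 5 that fell. They were also present in 7 of the 17 tested but not called and in 6 of the 23 not tested. This was noticed after the values were seen and has no test. The labels say that mRNA was purified from total RNA but not how, and the share of each member's fragments that came from a longer form was not tested.

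Genes of a divergent pair did not always move together. Both genes of the H2BC4 and H2AC6 pair rose with TPN at 144 h, by similar log2 fold changes of 1.40 and 1.39. H2BC21 and H2AC20, whose starts lie 235 bases apart on chromosome 1, changed in opposite directions, with 1.17 for H2BC21 and -2.07 for H2AC20. H2BC15 rose (0.85), and its partner H2AC15 stood at 0.47, 1.61 and 0.91 FPKM untreated and 1.91, 2.35 and 2.36 with TPN. The estimate for H2AC15 had the same direction, and its groups did not overlap, but it was not called (1.21 ± 0.56, adjusted p = 0.084). In the other 3 pairs with both genes tested, neither gene was called. The shared intervals of the first and second pair both held CCAAT, TATA and octamer motifs.

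**Figure D4:**
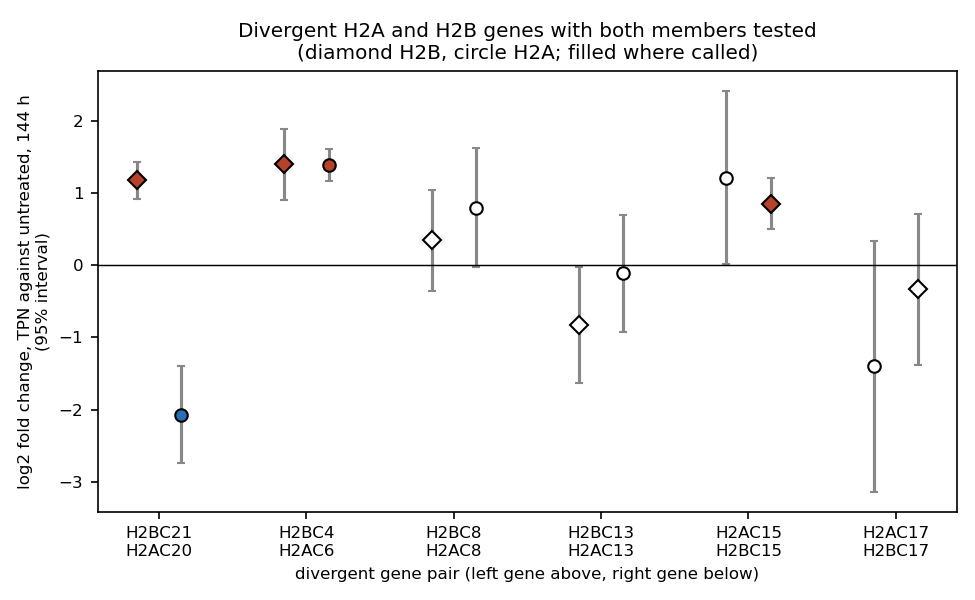
Log2 fold change with its 95% interval (TPN against untreated, 144 h) of both genes in the 6 divergent H2A and H2B pairs with both genes tested. Both genes of the H2BC4 and H2AC6 pair stand near 1.4, whereas H2BC21 stands at 1.17 and H2AC20 at -2.07.

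At 24 h the same members showed little difference. Of the 32 members tested, 0 rose and 1 fell, against 0.64% and 0.273% of all genes tested. At an unadjusted limma p under 0.05 there were 1 higher and 7 lower, and the share of all genes at that limit was not counted. The median log2 fold change was -0.17 over the 31 clustered members tested and -0.0045 over all genes. The member called was H2AC15, at 1.42, 0.23 and 0.73 FPKM untreated and 0.24, 0 and 0 with TPN (-2.31 ± 0.56, adjusted p = 0.0164). Its groups overlapped, and its values were low, with no estimate of fragments. The call was lost on leaving out untreated replicate 1 or 3 or TPN replicate 2 or 3 of that time, with an adjusted p of up to 0.0732 over all alternatives. Of the 9 members that rose at 144 h, H2BC5 stood at 3.00, 2.90 and 4.05 FPKM untreated and 3.25, 2.19 and 2.99 with TPN at 24 h, and H2AC6 at 9.86, 9.16 and 10.3 and 7.61, 8.53 and 10.1. Both had overlapping groups, with 95% intervals of the log2 fold change of -0.80 to 0.33 and of -0.39 to 0.05.

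**Figure D5:**
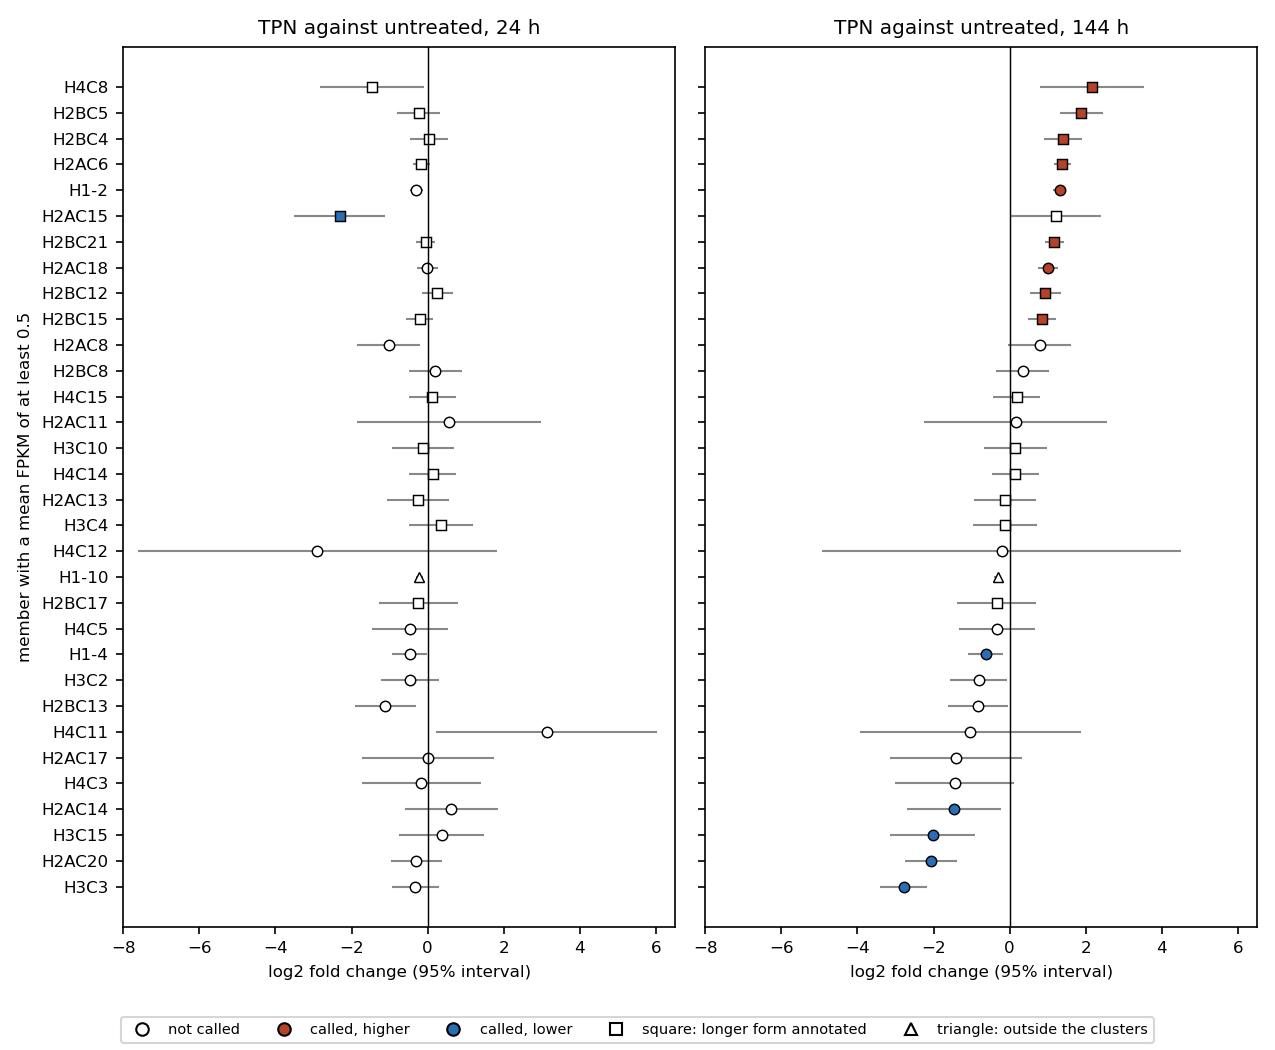
Log2 fold change of TPN against untreated at 24 h (left) and 144 h (right) with its 95% interval for the 32 members tested, ordered by the 144 h value, filled where called. At 24 h only H2AC15 (-2.31) is filled, at 144 h 9 members from H2BC15 (0.85) to H4C8 (2.16) and 5 from H1-4 (-0.63) to H3C3 (-2.79), and squares mark members with a longer annotated form.

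The difference between the TPN effects at 144 h and at 24 h was tested in the same fit. It was called for 13 of the 32 members, 10 with a more positive effect at 144 h and 3 with a more negative one, against 4.2% and 1.66% of all genes tested. Among well measured members it was 1.60 ± 0.12 for H1-2 (adjusted p = 8.28e-07), 1.55 ± 0.15 for H2AC6 (adjusted p = 7.67e-06), 2.12 ± 0.37 for H2BC5 (adjusted p = 0.00084), 1.36 ± 0.32 for H2BC4 (adjusted p = 0.00667) and 1.02 ± 0.18 for H2AC18 (adjusted p = 0.000914). H2BC12 was not called (0.68 ± 0.27, adjusted p = 0.0686). Of the 3 members called with a more negative effect, H3C3 had the largest difference, at -2.46 ± 0.41 (adjusted p = 0.000586).

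Untreated spheroids were also compared between 144 h and 24 h. Of the 32 members, 6 were higher at 144 h and 2 lower, whereas 6.8% of all genes tested were higher and 12.2% lower. The copies H4C14 and H4C15, which cannot be told apart, count as 2 of the 6. The median of all genes tested was -0.18 in this comparison and -0.0078 after median ratio scaling, under which the same 6 members were higher and 0 lower, since H1-4 and H2BC12 were no longer called. H1-10 (chr3:129314771-129316286, minus strand) stood at 72.9, 75.5 and 75.8 FPKM in untreated libraries at 24 h and at 71.5, 75.3 and 82.4 at 144 h, and at 64.5, 64.7 and 63.3 and at 62.3, 60.3 and 61.4 with TPN. Every exposed library lay below every untreated one at either time, but the TPN differences of -0.22 ± 0.04 at 24 h (adjusted p = 0.00404) and -0.31 ± 0.04 at 144 h (adjusted p = 3.09e-05) were below the fold threshold.

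Within the clusters, H2BC4 rose with time in untreated spheroids from 2.26, 2.21 and 2.91 FPKM to its 144 h values (1.09 ± 0.23, adjusted p = 0.000734), and H2AC6 from 9.86, 9.16 and 10.3 FPKM (0.66 ± 0.10, adjusted p = 6.09e-05; 0.57, under the fold threshold, without untreated 144 h replicate 1). H2BC15 rose from 1.96, 1.76 and 2.21 FPKM (1.35 ± 0.17, adjusted p = 5.52e-06). In all 3 genes the 144 h libraries lay above the 24 h libraries. H4C5, at 1.11, 1.09 and 1.52 FPKM at 24 h and 4.08, 3.88 and 2.47 at 144 h, gave 1.40 ± 0.46 (adjusted p = 0.0146), and the copies H4C14 and H4C15 gave 1.03 and 1.07. H2BC12 fell by 0.62 ± 0.19 (adjusted p = 0.00926), from 6.11, 9.79 and 10.4 FPKM with groups that overlapped. That call was lost on leaving out untreated 24 h replicate 2 or 3 or untreated 144 h replicate 1 or 2, with an adjusted p of up to 0.0532 over all alternatives. H1-2, at -0.38 ± 0.08 (adjusted p = 0.000858), was below the fold threshold. The summed FPKM of the clustered genes was 132 ± 7.59 at 24 h and 134 ± 11.9 at 144 h.

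In spheroids exposed to TPN, 13 of the 32 members were higher at 144 h than at 24 h and 6 lower, against 9.51% and 17.2% of all genes tested. Those that rose were H1-2, H2AC6, H2AC8, H2AC15, H2AC18, H2BC4, H2BC5, H2BC15, H2BC21, H4C5, H4C8, H4C14 and H4C15. Of these, the copies H4C14 and H4C15 cannot be told apart but are counted singly. Lower were H1-4, H2AC14, H2AC17, H2AC20, H3C3 and H3C15. The call of H2AC17 was lost with a pseudocount of 1 and without TPN 24 h replicate 2 or 3 or TPN 144 h replicate 2. Its limma adjusted p reached 0.127 over all alternatives. The comparison with time under TPN shares its 144 h exposed libraries with that of TPN against untreated. The values are therefore given side by side and not as further support. H2BC5 had 2.52 ± 0.26 with TPN and 0.41 ± 0.26 without it. H2BC4 had 2.44 ± 0.23 with TPN and 1.09 ± 0.23 without, and H2AC6 had 2.21 ± 0.10 and 0.66 ± 0.10. H4C8, a low member whose fragments were not estimated, had 4.05 ± 0.63 with TPN (adjusted p = 4.86e-05), from 0, 0.74 and 0.38 FPKM at 24 h. H3C3 had -2.45 ± 0.29 with TPN (adjusted p = 3.16e-06) and 0.01 ± 0.29 without it, and this difference is the one tested above as that of the TPN effects.

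Genes that act with the replication-dependent histones were counted in lists. Of 25 S phase genes, which code for replication and nucleotide synthesis proteins, 7 fell and 0 rose with TPN at 144 h, 0 were called at 24 h, and their median log2 fold change at 144 h was -0.52, while 3.73% of all genes tested fell at 144 h. At an unadjusted limma p under 0.05, 25 were lower at 144 h and 21 at 24 h, and the share of all genes at that limit was not counted. The S phase genes not called at 144 h missed only the fold threshold, since the largest limma adjusted p in the list was 0.000534 (POLE2). The genes named first by size were GINS4, a part of the replication helicase (-0.72 ± 0.06, adjusted p = 4.45e-07), MCM7, a helicase subunit (-0.70 ± 0.03, adjusted p = 3.34e-10), and CDC6, which loads the helicase (-0.67 ± 0.04, adjusted p = 1.15e-08). With time, 20 of the 25 fell in untreated spheroids (median -0.75) and 25 in exposed spheroids (median -1.10), and none rose, against 12.2% and 17.2% of all genes that fell. Of 20 genes of histone mRNA synthesis and 3′ end processing, 0 were called for TPN at either time. At an unadjusted limma p under 0.05, 4 were lower at 24 h, and 12 differed at 144 h (9 lower and 3 higher). With time in untreated spheroids 6 fell, against 12.2% of all genes tested. Among them was SLBP, which binds the stem-loop (-0.76 ± 0.05, adjusted p = 5.62e-09). The median of this list with time untreated was -0.42, against -0.18 over all genes tested. Of 19 histone chaperone genes, 1 fell with TPN at 144 h (ASF1B, which hands H3 and H4 to the assembly machinery, -0.81 ± 0.04, adjusted p = 4.66e-09). At 24 h 1 rose (ASF1A, 0.64 ± 0.04, adjusted p = 3.5e-07), against 0.64% of all genes tested. With time, 6 fell in untreated and 12 in exposed spheroids, against 12.2% and 17.2% of all genes tested. The single call at 144 h is a share close to the 3.73% of all genes that fell, and the medians with time were -0.49 untreated and -0.69 exposed. Of 11 replacement histone genes tested, 1 fell with TPN at 144 h (MACROH2A2, -0.62 ± 0.03, adjusted p = 2.55e-09), and with time in untreated spheroids H2AX (-0.90 ± 0.04, adjusted p = 2.05e-10) and H2AZ1 (-0.70 ± 0.03, adjusted p = 2.67e-10) fell, shares that rest on 1 and 2 genes and stand against 3.73% and 12.2% of all genes.

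Markers of the cell types in the spheroids were followed beside the histone genes. Of the 10 stellate cell markers, 7 were tested. With time, 5 fell without TPN (median -1.82) and 5 with it (median -2.88), against 12.2% and 17.2% of all genes tested. With TPN at 144 h 3 fell, against 3.73% of all genes, led by COL3A1 (-1.40 ± 0.18, adjusted p = 2.17e-05). The stellate markers PDGFRB (-0.0075 ± 0.07, adjusted p = 0.932) and ACTA2 (-0.27 ± 0.04, adjusted p = 3.40e-05) were not called with time in untreated spheroids. All 10 stellate cell markers together summed to 124 FPKM in untreated spheroids at 24 h and 110 with TPN at 24 h. At 144 h they summed to 74.6 untreated and 70.4 with TPN. DCN was listed at 0 in 10 of the 12 libraries, LUM in 6, DES in 2 and COL1A2 in 1. The 8 hepatocyte markers, ALB and APOA1 among them, summed to 12102, 10980, 13676 and 10769 FPKM in the same order. Of these 8, 2 fell with TPN at 144 h (ALB and TF), against 3.73% of all genes tested. With time without TPN, 1 rose and 1 fell, against 6.8% and 12.2% of all genes. In such bulk samples, fewer cells of a type and less RNA per cell cannot be told apart, and the part of cell types in the histone differences was not tested.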

How the data were processed

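RNA of 12 libraries was sequenced on the DNBSEQ platform after mRNA purification and strand-specific library construction; how mRNA was selected and whether counting used strand are not given in the sources used here. The authors filtered reads with SOAPnuke, mapped them to GRCh38.p13 with HISAT2 2.0.4 and to reference transcripts with Bowtie2 2.2.5, and calculated FPKM per gene with RSEM. The FPKM values were used as deposited by the authors. RSEM divides reads among similar transcripts, so values of paralogs are estimates. Read counts were not used here, and the authors' own differential expression used DESeq2.

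The 57 members were found by their symbols, of which 1 is not reported here, and 20 overflow lines of annotation text were left out. The 11713 genes averaging at least 0.5 FPKM entered a limma 3.58.1 fit of log2(FPKM + 0.1) in R 4.3.3 (lmFit over 4 groups, eBayes with intensity trend), and p values were adjusted by Benjamini-Hochberg. A fold change is on the log2(FPKM + 0.1) scale, so that of low genes or of genes with libraries at 0 depends on the pseudocount and may be too small or too large. That of H4C8 with time under TPN lay between 2.30 and 5.29 over all alternatives. A call needed an adjusted p below 0.05 together with an absolute log2 change over 0.58. The procedure was tested on simulated data. Members and lists were chosen with earlier results of these data known. Values in every library are given for called members averaging 5 FPKM or more and the 2 highest members of each class, and, chosen after their values were seen, for H2AC14, H2AC15, H2AC20, H2BC15, H2BC21, H3C15, H4C5 and H4C8. Genes of other lists were named by the size of their change among those called.

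Transcripts, strands and stem-loops came from GENCODE v44, promoters from RefSeq, and the intervals between starts from GRCh38. The strand in the table differed from GENCODE for 8 members, and GENCODE was used. Depth, estimated from FPKM steps at 1.84e+07 fragments per library, sets the precision, and estimates of fragments cover counting only. Replicate numbers did not pair libraries (same-number correlations of deviations -0.083 to 0.151, with 5 of 18 above 0.1). Alternatives changed the pseudocount, filter, scaling, trend, libraries in the fit, fold threshold and block, and left out each library in turn.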

Additional observations from a re-analysis of the deposited data

Results flagged for a closer look

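What TPN did at 144 h differed from what it did at 24 h for 13 of the 32 histone genes tested, by the test of the difference itself (limma, Benjamini-Hochberg adjusted p below 0.05 and a difference above 0.58 on the log2 scale). The effect at 144 h was more positive for H1-2 (difference 1.60), H2AC6 (1.55), H2AC8 (1.82), H2AC15 (3.52), H2AC18 (1.02), H2BC4 (1.36), H2BC5 (2.12), H2BC15 (1.06), H2BC21 (1.22) and H4C8 (3.61). It was more negative for H2AC20 (-1.77), H3C3 (-2.46) and H3C15 (-2.39). The values of H2AC8 and H3C15 rest on few fragments. Those of H2AC15 and H4C8 are low, and their fragments were not estimated. H2AC18 and H3C15 cannot be told apart from their copies. The call of H2AC8 was lost without TPN 24 h replicate 1, untreated 144 h replicate 2 or TPN 144 h replicate 3 (adjusted p up to 0.0543). That of H3C15 was lost without untreated 24 h replicate 1, TPN 24 h replicate 2, or replicate 2 or 3 of either 144 h group (adjusted p up to 0.0643).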

How the results depend on the processing

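Over the alternatives, 1166 of 1216 values of called members were still called and 0 reversed direction. The fit with no fold threshold is among them and cannot lose a call, and members removed by a filter were not counted as lost. The count is therefore no measure of stability. The 1 member called for TPN at 24 h became 0 with a pseudocount of 1, 2 with no filter, 0 with a mean FPKM of at least 5 and 3 with no fold threshold, and 0 to 2 were called without single libraries. With a mean FPKM of at least 5, which leaves 9 members to test, 6 were called for TPN at 144 h, 3 for time untreated, 5 for time with TPN and 5 for the difference of effects. This limit moves with the changes themselves, since H2BC4 and H2BC5 pass it through the exposed 144 h libraries and H2AC20 misses it through its fall there, so neither these counts nor the class sums of well measured members are a sign of stability. Without single libraries, 12 to 16 were called for TPN at 144 h, 6 to 9 for time untreated, 18 to 20 for time with TPN and 11 to 15 for the difference. With the replicate number as a block, the counts were 1, 15, 8, 19 and 14 in the order of 24 h, 144 h, time untreated, time with TPN and difference, and libraries of the same number were not shown to be paired. With a pseudocount of 1, TPN at 144 h gave 10 higher and 2 lower, and quantile normalization gave 9 and 7. With no filter, which tests all 56 members, it gave 11 higher and 5 lower.

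The calls of H1-4 and H2AC14 at 144 h were lost in 6 and 9 of 22 fits, that of H2AC15 at 24 h in 5 of 22, and that of H4C8 at 144 h with a pseudocount of 0.01 (adjusted p = 0.118). H2BC12 with time untreated was lost without untreated 24 h replicate 2 or 3 or untreated 144 h replicate 1 or 2, and H2AC6 fell to 0.57 without untreated 144 h replicate 1.

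Class sums moved with median ratio scaling for H1 to 18.5 (untreated 24 h) and 14.9 (TPN 24 h), H2A to 87.8 (TPN 144 h), H2B to 23.1 (untreated 24 h) and H1-10 with H1-8 to 70.0, 60.2 and 65.1 FPKM (untreated 24 h, TPN 24 h, TPN 144 h). With only well measured members, H1 was 18.7 and 15.3 at 24 h, and, giving 24 h before 144 h and untreated before TPN within each time, H2A was 24.8, 23.9, 32.0 and 73.8, H2B 14.6, 15.7, 15.8 and 41.4, and H4 27.9, 29.9, 23.8 and 14.8. H3 has no well measured member and no such value. The causes were not tested. Low FPKM in short genes limits all values below 5 FPKM.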
